A study of Rattus norvegicus with 9 samples.

Results

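Autophagy and lysosome genes were followed in gastrocnemius muscle, a calf muscle of mixed fibre types, of rats given dexamethasone with or without testosterone. The list holds 42 genes: 26 autophagy factors, from the initiation kinases to the cargo receptors and the transcription factor Tfeb, and 16 lysosomal genes. A member was every probe set of the array whose single gene symbol in the platform annotation was one of these 42. This rule found 39 genes on 62 probe sets, out of 14217 genes on 20826 probe sets with a single symbol and 31042 probe sets in all other than controls. Map1lc3b, Gabarapl2 and Atg4c had no probe set with a single symbol and are not analysed here. Each gene was represented by its probe set of highest mean level over the arrays, and all 39 genes passed the filter on low signal through that probe set, while 5 of the 62 probe sets did not pass.

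The samples were total RNA from male Wistar rats of 250 g, hybridised to Affymetrix rat expression arrays with 1 array per animal. In the dexamethasone plus testosterone group, 3 rats received dexamethasone at 0.7 mg/kg/day together with testosterone, whose dose is 28 mg/kg/day in the sample labels and 20 mg/kg/day in the series design, a difference that could not be settled. The dexamethasone group held 3 rats on 0.7 mg/kg/day dexamethasone alone, and the vehicle group held 3 rats on propylene glycol, the solvent that all groups received. Infusion by Alzet pumps, implanted osmotic pumps, ran for 7 days. Muscle tissue was homogenised, so for every result that follows, fewer cells of a type and less RNA per cell cannot be told apart. Of 14 skeletal muscle fibre markers, all 14 passed the filter, and their summed signal per array was 298945 to 349651 with both hormones, 335474 to 337019 with dexamethasone and 342909 to 360144 with vehicle.

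Autophagy encloses cytoplasm, mitochondria or protein aggregates in a double membrane and delivers them to lysosomes. The ULK1 kinase complex and the class III phosphatidylinositol 3-kinase start the membrane, a ubiquitin-like conjugation system attaches LC3 and GABARAP proteins to it, and receptors such as p62 and BNIP3 tether cargo to those proteins. Lysosomal membrane proteins and acid hydrolases, cathepsins among them, then complete the digestion, and in atrophying muscle this route is known to act beside the ubiquitin-proteasome system under the control of FoxO factors and TFEB.

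The deposited signals fell into 3 sets of arrays that the labels do not name. Set A (vehicle 1 and 3, dexamethasone 1, dexamethasone plus testosterone 1) had trimmed mean signals of 113 to 207 and no common scaling, whereas the other arrays all had a trimmed mean of 500.3. Set C (dexamethasone 3 and dexamethasone plus testosterone 3) had far weaker poly-A spike signals than set B (replicate 2 of each group) and Gapdh 3′ to 5′ signal ratios of 4.94 and 6.22, against 1.06 to 1.17 on the other 7 arrays. Set C held no vehicle array. Among 57 member probe sets tested, 10 (17.5%) had their lowest levels in both set C arrays, against 9.36% of all 18625 probe sets tested. The first probe sets of Gabarap, Sqstm1, Laptm4a, Ctsd and Neu1 were among these 10. Another 7 (12.3%, against 9.75%) had their highest levels in both, among them the first probe sets of Tfeb, Wipi2, Ulk2 and Gla. All levels below are log2(signal + 16) after quantile normalisation, and a change is a difference between group means on that scale.

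Dexamethasone was compared with vehicle to ask which of these genes differed after 7 days of the glucocorticoid. Ctsl, the lysosomal cysteine protease cathepsin L, Map1lc3a, which encodes one of the LC3 proteins, and Atg4a, a protease that processes LC3 and GABARAP proteins, rose. These 3 genes were called on 4 of 57 member probe sets, or 7.02%, with limma and a Benjamini-Hochberg adjusted p under 0.05 over all 18625 probe sets, where 1.05% were called (0.569% higher and 0.483% lower). No member fell, and 36 of 39 genes did not pass, where 1.3% of all 10428 genes passed. By class, 2 of 23 autophagy factors and 1 of 16 lysosomal genes rose. At an unadjusted p under 0.05, 13 member probe sets (22.8%) stood, 11 higher and 2 lower, against 15.5% of all probe sets (7.88% higher and 7.57% lower).

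**Figure D1:**
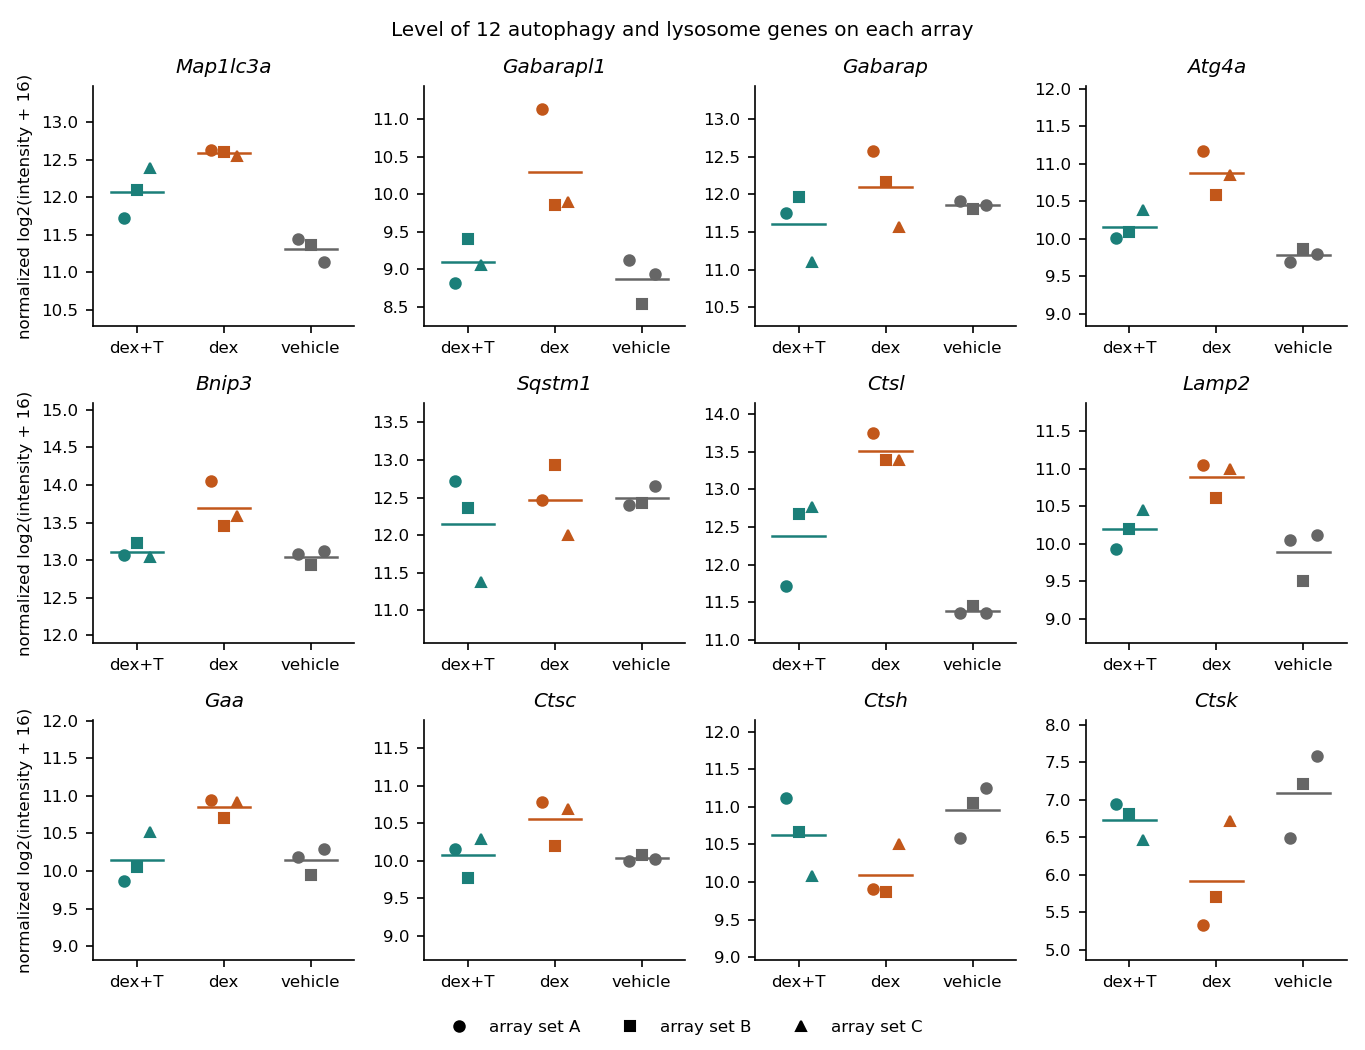
Normalised log2 level of selected members on each of the 9 arrays, with 1 panel per gene, the groups ordered as dexamethasone plus testosterone, dexamethasone and vehicle, a line at each group mean and the point shape giving the array set. The 3 dexamethasone arrays of Ctsl lie between 13.39 and 13.75, above the 3 vehicle arrays between 11.35 and 11.45.

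Cathepsin L had levels of 13.75, 13.39 and 13.40 on dexamethasone arrays 1 to 3, against 11.36, 11.45 and 11.35 on the vehicle arrays. The groups stood far apart, and the arrays within each group lay close together. The change of Ctsl was 2.13 ± 0.28 (SE, n = 3 rats per group), a 4.36-fold rise, with a limma adjusted p of 0.0206. Its other probe set gave 10.93, 10.62 and 10.45 with dexamethasone, against 8.83, 8.92 and 8.49 with vehicle, a change of 1.92 ± 0.27 with an adjusted p of 0.0220. Both probe sets thus passed, and within set A and set B the first differed by 2.39 and 1.94.

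Map1lc3a had levels of 12.63, 12.60 and 12.54 with dexamethasone, against 11.44, 11.36 and 11.13 with vehicle. The 3 dexamethasone arrays lay close together and did not overlap vehicle. The change was 1.28 ± 0.21 (2.42-fold), with a limma adjusted p of 0.0324, and it was 1.34 within set A and 1.24 within set B. Atg4a had levels of 11.17, 10.59 and 10.85 with dexamethasone, against 9.69, 9.86 and 9.79 with vehicle. The groups again did not overlap, with a change of 1.09 ± 0.21 (2.13-fold) and an adjusted p of 0.0471, close to the threshold. Within set A the difference in Atg4a was 1.43, and within set B it was 0.73.

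These 3 calls depended on single arrays and on the settings, those of Map1lc3a and Atg4a on more of the settings. None of the 3 passed with the replicate number as a block, where Ctsl had an adjusted p of 0.0578. With the array set as a block Ctsl passed (adjusted p 0.0412) and Map1lc3a (0.0553) and Atg4a (0.0689) did not, and both were also lost with median scaling, with a pseudocount of 1 and with no filter. Leaving out vehicle 1, 2 or 3 gave Ctsl adjusted p-values of 0.101, 0.0954 and 0.118, and leaving out dexamethasone 1 or 2 gave 0.0814 and 0.0602, so that no member passed in these 5 fits, although its change stayed between 2.02 and 2.18. Under the same 5 omissions the calls over all probe sets were 2, 1, 1, 6 and 13, against 196 with every array. Without dexamethasone plus testosterone 2, an array of neither group, Ctsl passed on both probe sets and Map1lc3a (0.0616) and Atg4a (0.0798) did not. Without dexamethasone 3 or without dexamethasone plus testosterone 1, Atg4a alone was lost (adjusted p of 0.0637 and 0.0594). Without both set C arrays Ctsl changed by 2.20 and Map1lc3a by 1.30, both still passing, while Atg4a changed by 1.08 with an adjusted p of 0.0566.

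**Figure D2:**
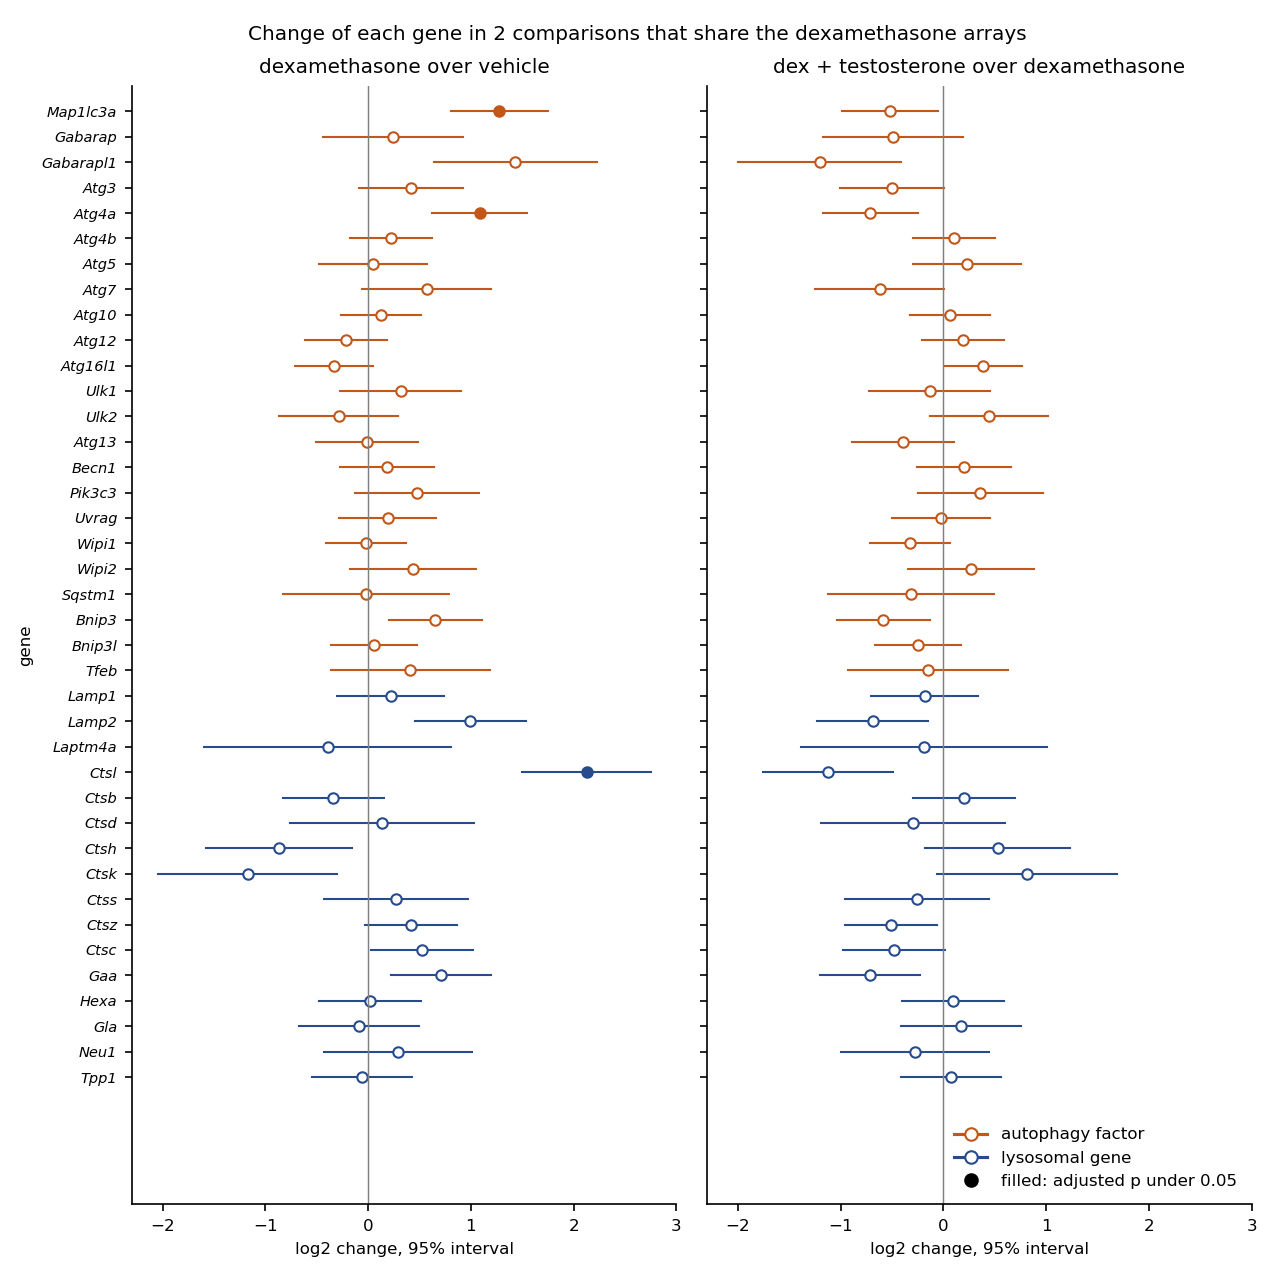
Log2 change with its 95% interval for each of the 39 genes, for dexamethasone over vehicle on the left and for dexamethasone plus testosterone over dexamethasone on the right, with filled points for an adjusted p under 0.05. Filled points stand at 2.13 for Ctsl, 1.28 for Map1lc3a and 1.09 for Atg4a on the left, and there is none on the right.

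In the rest of the LC3 and GABARAP family the 2 remaining genes did not pass. Gabarapl1, a GABARAP-like protein of the autophagosome membrane, had levels of 11.14, 9.86 and 9.90 with dexamethasone, against 9.12, 8.54 and 8.93 with vehicle. All 3 dexamethasone arrays stood above all vehicle arrays, with dexamethasone 1 more than 1 unit above the other 2, and the change was 1.43 ± 0.35 with an adjusted p of 0.0935. The second Gabarapl1 probe set changed by 1.29 ± 0.40 with an adjusted p of 0.164, and passed when both set C arrays were left out. Gabarap itself overlapped between the groups, at 12.58, 12.16 and 11.56 with dexamethasone and 11.92, 11.80 and 11.86 with vehicle. Its lowest value was the set C array, and the difference was 0.69 and 0.36 within sets A and B. Its second probe set, of lower level, differed in sign (0.24 and -0.49 for the 2 probe sets).

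Among the other 7 conjugation and processing genes besides Atg4a, none passed, and the changes of their representative probe sets lay between -0.33 and 0.57. Atg7, the enzyme that activates the ubiquitin-like proteins, had levels of 8.33, 7.50 and 7.99 with dexamethasone, against 7.69, 7.08 and 7.34 with vehicle, which overlapped (change 0.57 ± 0.28, adjusted p 0.375). Atg16l1, which directs the conjugation to the growing membrane, had 8.76, 8.52 and 8.68 with dexamethasone, against 8.96, 9.04 and 8.95 with vehicle. Its dexamethasone arrays were all below its vehicle arrays by a small margin (change -0.33 ± 0.17, adjusted p 0.393). The remaining 5 genes, Atg3, Atg4b, Atg5, Atg10 and Atg12, overlapped between the groups.

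The 8 initiation and nucleation genes had changes between -0.29 and 0.48, and all 8 overlapped between dexamethasone and vehicle. Ulk1, the kinase that starts autophagy, had levels of 9.67, 9.11 and 9.19 with dexamethasone, against 9.35, 8.85 and 8.80 with vehicle (change 0.32 ± 0.26, adjusted p 0.615). The second Ulk1 probe set, of lower level, changed by -0.057 ± 0.34 (adjusted p 0.955). Becn1, the beclin subunit of the phosphatidylinositol 3-kinase complex, had 10.52, 10.53 and 10.32 with dexamethasone, against 10.05, 10.36 and 10.40 with vehicle (change 0.19 ± 0.20, adjusted p 0.715). In both genes the dexamethasone levels reached into the vehicle range.

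Of the 3 cargo receptors, Bnip3, a mitochondrial protein that binds LC3 and marks mitochondria for autophagy, had levels of 14.05, 13.45 and 13.59 with dexamethasone, against 13.08, 12.93 and 13.11 with vehicle. The groups did not overlap, and the change was 0.65 ± 0.20 with an adjusted p of 0.160. Its relative Bnip3l overlapped, at 11.23, 10.90 and 10.75 with dexamethasone and 10.95, 10.76 and 11.00 with vehicle (change 0.056 ± 0.19, adjusted p 0.916). The second Bnip3l probe set, of lower level, also overlapped (change -0.30 ± 0.19, adjusted p 0.509). Sqstm1, which encodes the ubiquitin-binding receptor p62, had levels of 12.47, 12.94 and 12.00 with dexamethasone, against 12.40, 12.42 and 12.65 with vehicle. The lowest and the highest of these 6 values were both dexamethasone arrays, and the change was -0.022 ± 0.36 (adjusted p 0.984), or 0.21 without set C and 0.39 when arrays were scaled to a common median instead. Tfeb, the transcription factor of lysosomal genes, had 9.39, 9.50 and 10.10 with dexamethasone, against 9.41, 9.26 and 9.09 with vehicle, an overlap with its highest value on the set C array (change 0.41 ± 0.34, adjusted p 0.623).

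The lysosomal membrane proteins differed among themselves. Lamp2, a membrane protein needed for the fusion of autophagosomes with lysosomes, had levels of 11.05, 10.62 and 11.00 with dexamethasone, against 10.05, 9.51 and 10.12 with vehicle. The groups did not overlap, and the change was 0.99 ± 0.24 with an adjusted p of 0.0907. Its second probe set, of similar mean level, changed by less (0.41 ± 0.25, adjusted p 0.475), with groups that narrowly did not overlap. Lamp1, the other abundant protein of the lysosomal membrane, had 12.73, 12.16 and 12.51 with dexamethasone, against 12.53, 12.17 and 12.05 with vehicle, and overlapped (change 0.22 ± 0.23, adjusted p 0.704). Laptm4a, a small protein of the same membrane, also overlapped, with a change of -0.40 and its lowest dexamethasone level, 10.78, on the set C array. Within sets A and B it differed by -0.40 and -0.31.

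Within the cathepsins the changes ran from -1.17 to 2.13, the widest range of any role. Ctsc, which activates granule proteases, had levels of 10.78, 10.19 and 10.69 with dexamethasone, against 10.00, 10.07 and 10.02 with vehicle, without overlap (change 0.52 ± 0.22, adjusted p 0.297). Ctsh, an aminopeptidase cathepsin, lay the other way, at 9.91, 9.86 and 10.51 with dexamethasone, against 10.59, 11.05 and 11.25 with vehicle (change -0.87 ± 0.31, adjusted p 0.224). Ctsk, the collagen-degrading cathepsin of osteoclasts and fibroblasts, had 5.34, 5.70 and 6.72 with dexamethasone, against 6.48, 7.21 and 7.58 with vehicle. Its set C array was the one that reached the vehicle range (change -1.17 ± 0.39, adjusted p 0.186). Ctsb and Ctsd, the abundant cathepsins B and D, changed by -0.34 ± 0.22 (adjusted p 0.510) and 0.13 ± 0.40 (adjusted p 0.907), and both overlapped. Under median scaling Ctsb was at 0.11, where the median of all genes was 0.28. Within sets A and B, Ctsd differed by 0.44 and 0.38.

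Of the 5 other hydrolases, Gaa, the acid alpha-glucosidase that degrades glycogen in lysosomes, had levels of 10.95, 10.71 and 10.91 with dexamethasone, against 10.19, 9.95 and 10.30 with vehicle. All dexamethasone arrays were above all vehicle arrays (change 0.71 ± 0.22, adjusted p 0.156). A second Gaa probe set, lowest on both set C arrays, changed by -0.25 ± 0.87. Hexa, Gla, Neu1 and Tpp1 overlapped, with changes between -0.086 and 0.29, and Neu1 differed by 0.30 and 0.77 within sets A and B. Over the list, 16 genes had more than 1 tested probe set, and for 7 of them the probe sets differed in the sign of the change: Atg12, Atg4b, Bnip3l, Gaa, Gabarap, Sqstm1 and Ulk1.

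Read as classes, the autophagy factors had a median change of 0.22 and the lysosomal genes of 0.18, beside 0.042 over all genes tested. Of the 39 genes, 27 (69.2%) had a change above 0, against 54.3% of all genes. Groups that did not overlap, with dexamethasone higher, were found for 9 genes (23.1%), against 15.2% of all genes, and with dexamethasone lower for 2 genes (5.13%), against 11.5%. The 9 genes were Map1lc3a, Gabarapl1, Atg4a, Bnip3, Lamp2, Ctsl, Ctsz, Ctsc and Gaa, and the 2 were Atg16l1 and Ctsh. The lysosomal median depended on single arrays, since it was 0.064, 0.082 and 0.093 without dexamethasone 1, 2 and 3, while that of the autophagy factors lay between 0.16 and 0.25 when any 1 array was left out. Without dexamethasone 1, 2 and 3 the median of all genes was 0.039, 0.083 and 0.0066. The lysosomal genes thus did not stand above all genes without dexamethasone 2.

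**Figure D3:**
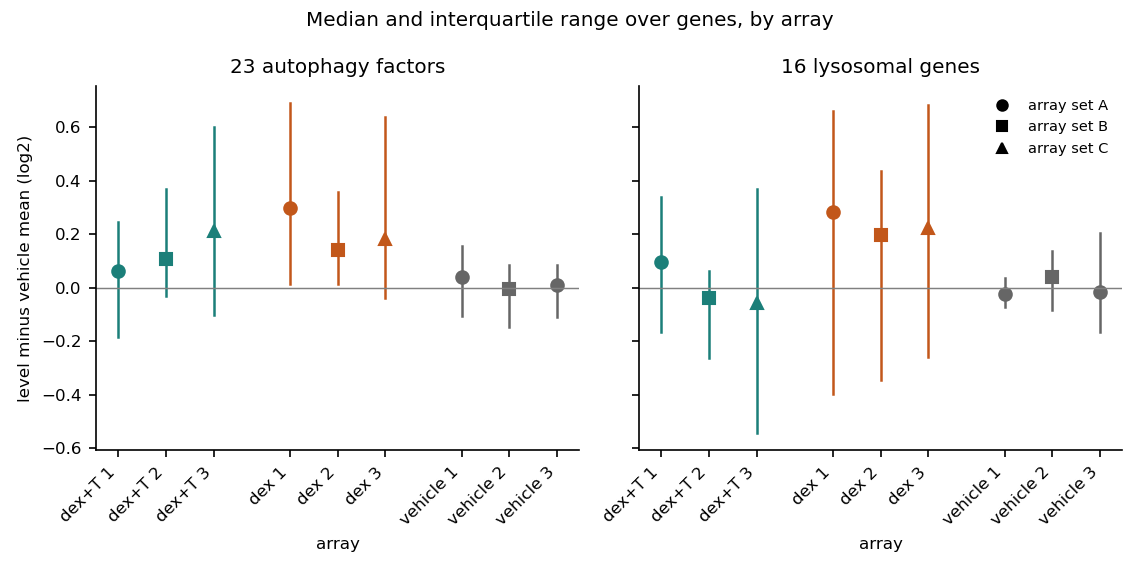
Median over the 23 autophagy factors and over the 16 lysosomal genes of the level on each array minus the gene's vehicle mean (log2), with bars for the interquartile range over genes. The dexamethasone arrays lie between 0.14 and 0.30 for autophagy factors and between 0.20 and 0.28 for lysosomal genes, above the vehicle arrays in both classes.

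Array by array, the median autophagy factor stood at 0.30, 0.14 and 0.18 above its vehicle mean with dexamethasone, and at 0.039, -0.0035 and 0.011 on the vehicle arrays. The median lysosomal gene stood at 0.28, 0.20 and 0.22 with dexamethasone, and at -0.022, 0.039 and -0.015 on the vehicle arrays. Because vehicle arrays are set against their own mean, their narrow range is in part built in. The lysosomal median minus the autophagy median was -0.016, 0.055 and 0.040 on the dexamethasone arrays, against -0.061, 0.043 and -0.026 on the vehicle arrays, ranges that overlapped. On dexamethasone arrays 1, 2 and 3 the interquartile range of lysosomal genes ran from -0.40 to 0.66, from -0.34 to 0.43 and from -0.26 to 0.68. That of autophagy factors was narrower on these 3 arrays, from 0.015 to 0.69, from 0.012 to 0.36 and from -0.037 to 0.64, but was not narrower on dexamethasone plus testosterone 2, vehicle 1 or vehicle 2.

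Promoters are shown for Ctsl, the called member with the largest change, and for Bnip3 and Ctsd, which carry the E-box core CACGTG, the centre of the CLEAR element bound by TFEB. Each sequence is the 250 bases before the start in the RefSeq promoter table on GRCr8, 5′ to 3′ on the gene's strand, with CACGTG in capitals. All 3 windows lie outside the gene's span in the same assembly. They are at chr17:769854-770103 on the plus strand for Ctsl, at chr1:203154963-203155212 on the minus strand for Bnip3 and at chr1:206968822-206969071 on the minus strand for Ctsd.
Ctsl: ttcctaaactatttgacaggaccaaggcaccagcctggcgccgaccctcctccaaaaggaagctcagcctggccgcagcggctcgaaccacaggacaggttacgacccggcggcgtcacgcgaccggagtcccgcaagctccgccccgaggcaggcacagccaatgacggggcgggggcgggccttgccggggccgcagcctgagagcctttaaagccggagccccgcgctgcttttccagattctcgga
Bnip3: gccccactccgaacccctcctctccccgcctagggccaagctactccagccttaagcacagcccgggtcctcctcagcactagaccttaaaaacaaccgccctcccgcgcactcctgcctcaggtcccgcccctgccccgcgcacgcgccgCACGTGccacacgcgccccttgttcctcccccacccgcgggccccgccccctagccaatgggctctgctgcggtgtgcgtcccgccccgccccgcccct
Ctsd: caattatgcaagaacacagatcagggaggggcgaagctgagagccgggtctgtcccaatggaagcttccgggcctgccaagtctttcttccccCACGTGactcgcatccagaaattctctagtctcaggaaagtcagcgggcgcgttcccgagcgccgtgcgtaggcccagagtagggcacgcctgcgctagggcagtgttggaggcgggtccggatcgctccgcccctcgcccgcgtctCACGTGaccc

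The search matched 34 member genes on 35 promoters; Map1lc3a, Becn1, Bnip3l, Ctsb and Hexa were not among them. Of the 35 windows, 15 reached into the span of their own gene, since the table's start is not always the outermost one, and those of Atg4a, Lamp1 and Gaa were among them. On either strand, CACGTG was present in 6 of the 35 (17.1%), those of Atg3, Atg5, Bnip3, Ctsd, Gaa and Lamp1, against 5.61% of 33360 promoters of the same length. Ctsd held 2 copies, whose first bases were at -157 and -10 relative to the start, and Bnip3 held 1, at -99. The FoxO core GTAAACA and the glucocorticoid response element GNACANNNTGTNC, searched on both strands, were in 0 member promoters, against 3.21% and 0.375% of all promoters. No 2 matches overlapped. Ctsl held none of the 3 motifs in this window, and Ctsd and Bnip3 did not pass in any comparison.

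Testosterone given with dexamethasone was compared with dexamethasone alone, a comparison that shares the dexamethasone arrays with the previous one, so a high or low dexamethasone array moves both, in opposite directions. No member passed: 0 of 57 probe sets, against 0.113% of all probe sets tested (0.0698% higher and 0.043% lower) and 0.144% of all genes. At an unadjusted p under 0.05 in limma, 13 member probe sets (22.8%) stood, 2 higher and 11 lower, against 11% of all (5.59% higher and 5.36% lower). The group with both hormones lay entirely below dexamethasone for 9 genes (23.1%, against 8.66% of all genes), namely Map1lc3a, Gabarapl1, Atg4a, Bnip3, Wipi1, Lamp2, Ctsl, Ctsz and Gaa. It lay entirely above for 1 gene, Atg16l1 (2.56%, against 7.68%). These counts use the first probe set of each gene. The second Gabarap probe set also lay entirely above dexamethasone (change 0.68 ± 0.23, adjusted p 0.324), where the first changed by -0.49. Of the 16 genes with more than 1 tested probe set, 6 had probe sets that differed in sign.

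Ctsl had levels of 11.72, 12.67 and 12.77 with both hormones, against 13.75, 13.39 and 13.40 with dexamethasone. The groups were apart, and the first array with both hormones lay well below the other 2 of its group. The change was -1.12 ± 0.28 with a limma adjusted p of 0.164, and it was -2.03, -0.71 and -0.63 within sets A, B and C. The second probe set gave -1.10 ± 0.27 with an adjusted p of 0.165.

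Gabarapl1 had levels of 8.82, 9.40 and 9.06 with both hormones, against 11.14, 9.86 and 9.90 with dexamethasone. Its change of -1.20 ± 0.35 (adjusted p 0.240) was -2.31 within set A, where dexamethasone 1 was high, and -0.46 and -0.84 within sets B and C. Atg4a had 10.01, 10.10 and 10.38 with both hormones, against 11.17, 10.59 and 10.85 with dexamethasone, a change of -0.71 ± 0.21 (adjusted p 0.233). Map1lc3a had 11.72, 12.09 and 12.39 with both hormones, against 12.63, 12.60 and 12.54 with dexamethasone (change -0.52 ± 0.21, adjusted p 0.407), and its difference was -0.90, -0.50 and -0.15 within sets A, B and C. In these genes the largest difference in size was in set A.

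Bnip3 had levels of 13.07, 13.23 and 13.04 with both hormones, against 14.05, 13.45 and 13.59 with dexamethasone (change -0.58 ± 0.20, adjusted p 0.323). Lamp2 had 9.94, 10.20 and 10.46 with both hormones, against 11.05, 10.62 and 11.00 with dexamethasone (change -0.69 ± 0.24, adjusted p 0.331). Gaa had 9.87, 10.05 and 10.52 with both hormones, against 10.95, 10.71 and 10.91 with dexamethasone (change -0.71 ± 0.22, adjusted p 0.260). On these first probe sets none of the 3 overlapped, and none passed. The second Lamp2 probe set overlapped (change -0.36 ± 0.25, adjusted p 0.673), as did the second Gaa probe set (-0.34 ± 0.87, adjusted p 0.941). Ctsz, a carboxypeptidase cathepsin, was at 7.80, 8.17 and 8.10 with both hormones, against 8.75, 8.37 and 8.47 with dexamethasone (change -0.51 ± 0.20, adjusted p 0.394). Atg3, the enzyme that transfers LC3 to lipid, overlapped (change -0.50 ± 0.23, adjusted p 0.461), as did the first probe set of Ctsc (-0.48 ± 0.22, adjusted p 0.472). The second Ctsc probe set, of lower level, did not overlap, at 8.84, 8.32 and 7.63 with both hormones, against 9.19, 9.62 and 9.27 with dexamethasone (change -1.09 ± 0.30, adjusted p 0.209).

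On the other side of 0, Atg16l1 had levels of 9.19, 9.004 and 8.92 with both hormones, against 8.76, 8.52 and 8.68 with dexamethasone (change 0.39 ± 0.17, adjusted p 0.453). Ctsk had 6.94, 6.81 and 6.46 with both hormones, against 5.34, 5.70 and 6.72 with dexamethasone, an overlap through the set C arrays (change 0.82 ± 0.39, adjusted p 0.495). Its difference was 1.60 and 1.11 within sets A and B and -0.26 within set C. The median change was -0.15 over the autophagy factors and -0.22 over the lysosomal genes, beside -0.00096 over all genes, and 15 of 39 genes (38.5%) were above 0, against 49.9% of all genes. These medians also turned on single arrays: without dexamethasone plus testosterone 1 the autophagy median was -0.0066 and the lysosomal median -0.42, and without dexamethasone plus testosterone 3 the lysosomal median was -0.026. The median of all genes was 0.029 without dexamethasone plus testosterone 1. Without dexamethasone plus testosterone 3 it was -0.039, so the lysosomal median was then not below it. Without dexamethasone plus testosterone 2 the autophagy median was -0.26, where that of all genes was 0.017. Without dexamethasone 2 the autophagy median was -0.23 and the lysosomal median -0.11, where that of all genes was -0.043.

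For the 3 called genes, set side by side with the dexamethasone arrays in both comparisons, Ctsl changed by 2.13 for dexamethasone over vehicle and by -1.12 when testosterone was added, Map1lc3a by 1.28 and -0.52, and Atg4a by 1.09 and -0.71. These genes were picked for high dexamethasone arrays, and the second change subtracts the same arrays. Opposite signs in the 2 comparisons are therefore in part built in and are no separate evidence of a reversal. Other members had the same sign in both, such as Pik3c3 (0.48 and 0.36), Wipi2 (0.44 and 0.27) and Becn1 (0.19 and 0.20), examples chosen after their values were seen, and none of these 3 passed in either comparison.

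**Figure D4:**
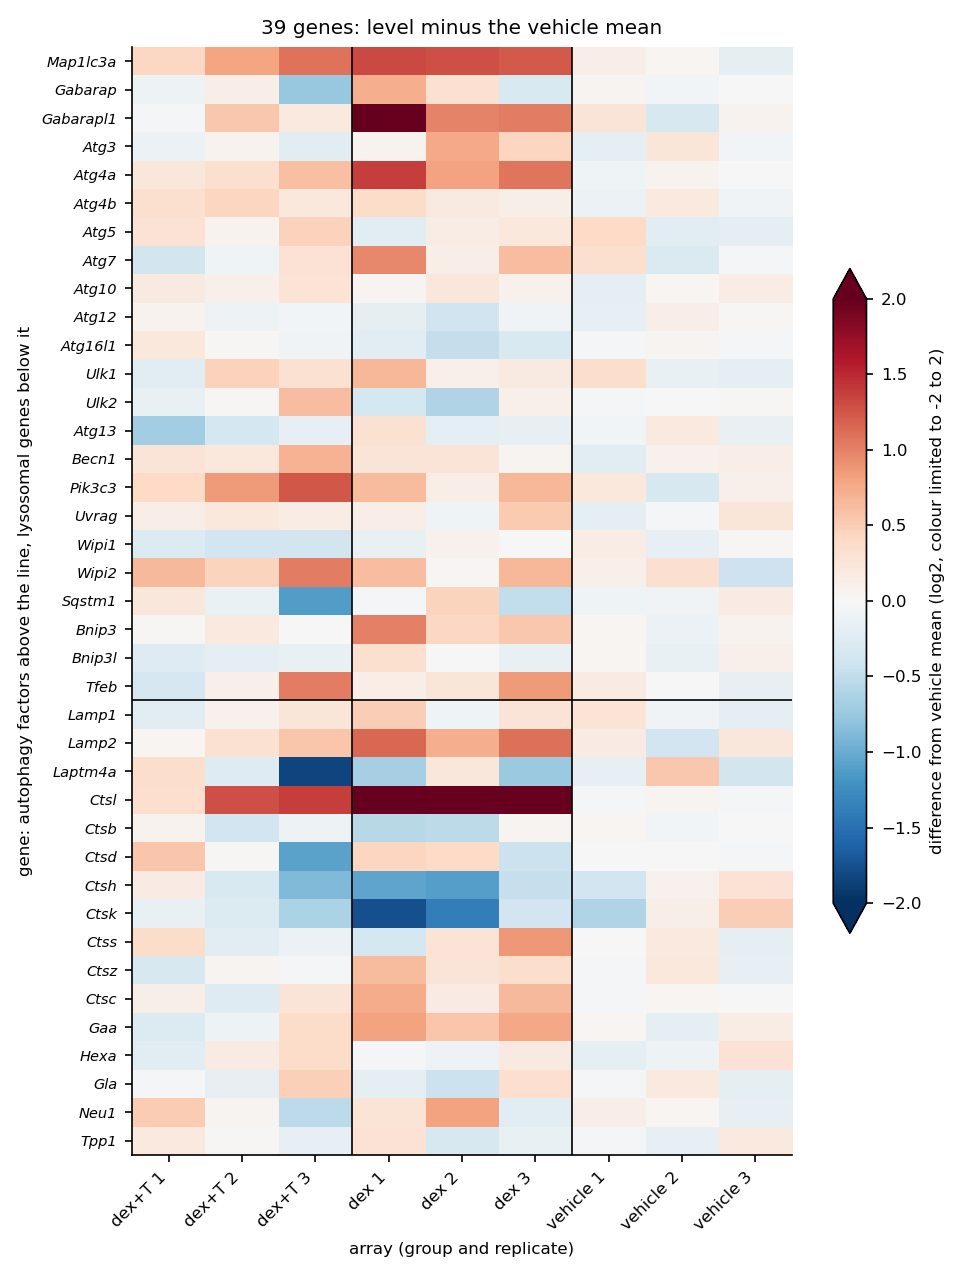
Level of each of the 39 genes on each array minus the gene's vehicle mean (log2), in rows by role and columns ordered as dexamethasone plus testosterone, dexamethasone and vehicle. Ctsl, Map1lc3a, Gabarapl1, Atg4a and Lamp2 are above vehicle on all 3 dexamethasone arrays, and Sqstm1, Laptm4a and Ctsd are lowest on the 2 set C arrays.

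With both hormones set against vehicle, no member passed, and neither did any of the 18625 probe sets (0%). At an unadjusted p under 0.05 in limma there were 6 member probe sets (10.5%), against 6.12% of all probe sets (3.16% higher and 2.95% lower). Groups did not overlap with both hormones higher for 7 genes, where 8.45% of all genes did so, and lower for 2, where 6.53% did. The 7 were Map1lc3a, Atg4a, Atg4b, Becn1, Pik3c3, Wipi2 and Ctsl, and the 2 were Atg13 and Wipi1.

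Map1lc3a, at 11.72, 12.09 and 12.39 with both hormones, against 11.44, 11.36 and 11.13 with vehicle, changed by 0.76 ± 0.21 (adjusted p 0.802). Ctsl, at 11.72, 12.67 and 12.77 with both hormones, against 11.36, 11.45 and 11.35 with vehicle, changed by 1.00 ± 0.28 (adjusted p 0.802). Each of the 3 arrays with both hormones was above the vehicle range in both genes, and for Ctsl the difference was 0.36 within set A and 1.23 within set B. Pik3c3, the catalytic subunit of the class III phosphatidylinositol 3-kinase, had levels of 7.89, 8.34 and 8.73 with both hormones, against 7.71, 7.17 and 7.59 with vehicle (change 0.83 ± 0.27, adjusted p 0.802). Wipi2, which reads the lipid made by that kinase, had 8.76, 8.56 and 9.13 with both hormones, against 8.21, 8.43 and 7.70 with vehicle (change 0.70 ± 0.27, adjusted p 0.815). Within sets A and B, Pik3c3 differed by 0.24 and 1.17, and Wipi2 by 0.80 and 0.13. For Pik3c3 and Wipi2 the highest level with both hormones was on the set C array, and set C held no vehicle array.

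Smaller differences from vehicle were seen in Becn1 (0.39 ± 0.20, adjusted p 0.835), Atg4a (0.38 ± 0.21, adjusted p 0.841) and Wipi1 (-0.34 ± 0.17, adjusted p 0.830), all with groups that did not overlap. Lamp2 (0.30), Ctsh (-0.34), Ctsk (-0.36), Ctsb (-0.14) and Laptm4a (-0.58) overlapped. Under median scaling Wipi1, Ctsh and Ctsb were at 0.035, 0.035 and 0.25, where the median of all genes was 0.25. Gaa changed by -0.00051 ± 0.22 and Bnip3 by 0.068 ± 0.20. The median change was 0.17 over the autophagy factors and 0.012 over the lysosomal genes, beside 0.038 over all genes, with 24 of 39 genes above 0 (61.5%, against 55.7%), and the autophagy median was 0.073 without dexamethasone plus testosterone 2 and 0.11 without vehicle 1, vehicle 2 or dexamethasone plus testosterone 3. Without dexamethasone plus testosterone 2 the median of all genes was 0.056. Without vehicle 3 the lysosomal median was -0.067, where that of all genes was 0.036. The median autophagy factor stood at 0.064, 0.11 and 0.21 above its vehicle mean on the arrays with both hormones, and the median lysosomal gene at 0.096, -0.039 and -0.057.

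Other genes of the same route, listed apart from the members, gave no call in any comparison. For dexamethasone over vehicle, 0 of 33 other autophagy genes passed (median change 0.16, 7 at an unadjusted p under 0.05), 0 of 24 other lysosomal hydrolases (median -0.070, 4 unadjusted) and 0 of 18 other lysosomal membrane and helper proteins (median 0.19, 2 unadjusted). Among subunits of the vacuolar ATPase, the proton pump that acidifies lysosomes, 0 of 17 passed (median 0.24, 3 unadjusted). Over all probe sets 15.5% stood at that unadjusted threshold. Groups that did not overlap, with dexamethasone higher, were found for 7 other autophagy genes, 3 hydrolases, 3 membrane and helper proteins and 7 pump subunits, where 15.2% of all genes did so. The hydrolases thus had a median below that of all genes, and the pump subunits one above it.

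**Figure D5:**
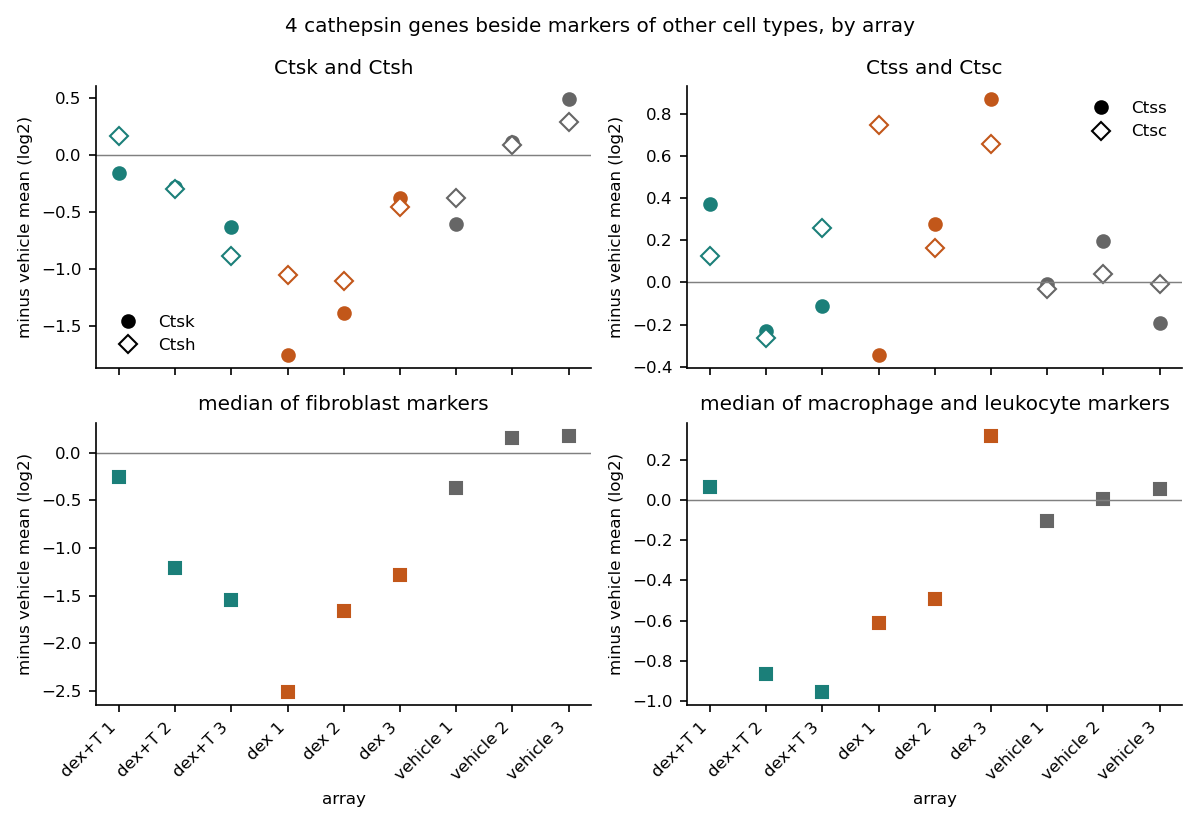
Levels of Ctsk and Ctsh, and of Ctss and Ctsc, on each array minus the vehicle mean (log2, upper panels), over the medians of the fibroblast markers and of the macrophage and leukocyte markers on the same arrays (lower panels). The fibroblast marker median was lowest, at -2.51, on dexamethasone array 1, where Ctsk was also lowest, while Ctsh was lowest on dexamethasone array 2.

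Several cathepsins are known from connective tissue and immune cells, and markers of those cells were followed on the same arrays. Of 13 fibroblast markers tested, all 13 were lower with dexamethasone than with vehicle, with a median change of -1.75, where 54.3% of all genes had a change above 0. For 10 of them the groups did not overlap, against 11.5% of all genes. The 2 that fell, against 0.483% of all probe sets, were Mfap4 (change -3.90, limma adjusted p 0.0161) and Mfap5 (change -1.75, adjusted p 0.0338), both microfibril proteins. The summed signal of the 14 fibroblast markers was 13936 to 36175 with both hormones, 5130 to 17718 with dexamethasone and 31057 to 47056 with vehicle. The fibroblast marker median on dexamethasone arrays 1, 2 and 3 was -2.51, -1.66 and -1.28 relative to vehicle. On the same arrays the level of Ctsk was 5.34, 5.70 and 6.72, and that of Ctsh was 9.91, 9.86 and 10.51. The part of these cells in the lower Ctsk and Ctsh levels was not tested.

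Of 17 macrophage and leukocyte markers tested, none passed (median change -0.31, 2 unadjusted), and Adgre1, Itgam and Coro1a did not reach the filter. Their summed signal was 1993 to 4312 with both hormones, 1747 to 5149 with dexamethasone and 3684 to 4340 with vehicle. Dexamethasone 3, the set C array, had the highest sum. It also had the highest level of Ctss, a cathepsin of antigen-presenting cells, at 8.69, against 7.48 and 8.10 on dexamethasone 1 and 2. The first probe set of Ctsc and that of Ctsz were instead highest on dexamethasone 1, at 10.78 and 8.75, where the marker sum was lowest. Ctss overlapped between dexamethasone and vehicle (change 0.27 ± 0.31). The part of these cells in the cathepsin levels was not tested. Markers of the remaining cell types gave no call for dexamethasone over vehicle: the median change was -0.018 over 14 muscle fibre markers (2 unadjusted), -0.60 over 7 endothelial markers (4 unadjusted), -0.026 over 4 adipocyte markers (0 unadjusted), -1.11 over 2 erythroid markers (2 unadjusted) and 0.47 over 2 neutrophil markers (1 unadjusted).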

How the data were processed

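The values were single-array signal intensities for 31042 probe sets on 9 arrays, as deposited by the authors on a linear scale; the signal algorithm and its scaling were not given in the sources used here, since no label or header names them. The series design states 1 chip per animal and 3 animals per group. Another 57 Affymetrix control probe sets were left out. Intensities were converted to log2(signal + 16), quantile normalised over all arrays because the deposited array medians differed by up to 1.82 on the log2 scale, and probe sets with a mean under the 40th percentile were left out. limma 3.58.1 in R 4.3.3 (lmFit and eBayes, 1 mean per group, all 9 arrays) gave changes, and p-values were adjusted by Benjamini-Hochberg over all probe sets tested, with a threshold of 0.05. The pipeline was run on simulated data with independent noise and no array sets. That run does not bear on how the calls depend on single arrays. The number of arrays limits the precision, and correlations between arrays ran from 0.876 to 0.973.

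The members, the other pathway lists and the cell type marker lists were chosen with earlier results of these data known, so no p-value is given for any list, and the medians are descriptions. In each comparison the genes named with a test were those called, the 6 autophagy factors and the 6 lysosomal genes of lowest unadjusted p, and, for dexamethasone over vehicle, a set of 14 standard genes of which Map1lc3b had no probe set. Gene symbols came from the platform annotation, updated by gene identifier. Promoters came from RefSeq on GRCr8, cut to 250 bases before the start.

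Alternatives were median scaling, pseudocounts of 1 and 64, no filter and a 60th percentile filter, an intensity trend with robust variance, 2 groups only, the replicate number or the array set as a block, omission of each array, and omission of both arrays with high 3′ to 5′ ratios. The array sets were read from the deposited scaling and control signals, not from labels.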

Additional observations from a re-analysis of the deposited data

How the results depend on the processing

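For dexamethasone over vehicle, the count of 4 called member probe sets became 2 with median scaling, with a pseudocount of 1, with no filter and with the array set as a block, 6 with an intensity trend and robust variance, and 0 to 4 when single arrays were left out. With the replicate block it was 0 (13 calls over all probe sets, against 196). Same-numbered arrays correlated between -0.20 and 0.59 in their deviations from group means, and not every array correlated best with its own number. Whether the numbers pair the rats cannot be told from this, because same-numbered arrays mostly shared an array set. Ctsl kept its direction in 19 of 19 alternatives and passed in 13, Map1lc3a in 8, Atg4a in 4, Lamp2 in 3 and Gabarapl1 in 1, each by its first probe set, and the second Gabarapl1 probe set passed in 1 other, without both set C arrays. Counts over all probe sets ran from 1 to 510.

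With median scaling the median of all genes was 0.28 for dexamethasone over vehicle and 0.25 for both hormones over vehicle, against 0.042 and 0.038 with quantile normalisation. Under it the autophagy and lysosomal medians were 0.61 and 0.45 for dexamethasone over vehicle (0.33 and 0.18 above all genes), 0.44 and 0.24 for both hormones over vehicle (0.19 above and 0.015 below all genes), and the lysosomal median was -0.32 for testosterone added to dexamethasone.

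Without both set C arrays the lysosomal medians were 0.093 (dexamethasone over vehicle) and -0.035 (testosterone added), and the autophagy medians -0.25 (testosterone added) and 0.11 (both over vehicle). With the array set as a block the autophagy median for both over vehicle was 0.0998, and with the 60th percentile filter the lysosomal median for dexamethasone over vehicle was 0.22. Leaving out single arrays gave autophagy medians of 0.16 to 0.25, -0.26 to -0.0066 and 0.073 to 0.19, and lysosomal medians of 0.064 to 0.20, -0.42 to -0.026 and -0.067 to 0.012, in the same order of comparisons. The median of all genes moved too under these omissions, from 0.0066 to 0.083 for dexamethasone over vehicle.

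Of 44 named changes, 36 kept their sign throughout. For dexamethasone over vehicle, Sqstm1 was 0.39 with median scaling, 0.29 with the array set block, 0.21 without both set C arrays or without dexamethasone 3, and 0.060 without vehicle 3 (-0.26 to 0.21 over single omissions). Bnip3l was -0.014 without vehicle 2 and -0.077 without dexamethasone 1 (up to 0.16), Ctsd -0.018 without dexamethasone 1 (up to 0.42), and Ctsb 0.11 with median scaling. For both hormones over vehicle, median scaling gave Ctsb 0.25, Ctsh 0.035 and Wipi1 0.035, and Laptm4a was 0.042 without both set C arrays and 0.041 without dexamethasone plus testosterone 3 (down to -1.06 without dexamethasone plus testosterone 1). Under median scaling the median of all genes was 0.28 for dexamethasone over vehicle and 0.25 for both hormones over vehicle. The values of Ctsb, Ctsh and Wipi1 under it were below these medians, and that of Sqstm1 was above. The cause of these sign changes was not tested.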
